A study of Mus musculus with 1094 samples.

Results

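The E15.5 Hes5::GFP sort, labelled as neural stem cells (NSC E15.5), held mostly cells with a neuronal transcript profile. All 86 cells labelled with this sort and stage were taken, of 1094 cells in 17 libraries, a library being all cells of 1 population at 1 stage. Neural stem cells (NSC, 8 libraries) were sorted as GFP-positive cells of Hes5::GFP transgenic mice, and basal progenitors (BP, 5 libraries) and newborn neurons (NBN, 4 libraries) as GFP-positive cells of Tbr2::GFP transgenic mice. All were labelled C57Bl/6, wild-type and female, with forebrain as tissue and dorsal cerebral cortex as source. The cortices were dissociated with papain, single cells were captured on a Fluidigm C1 array, and cDNA was made with the SMARTer kit. Beside NSC E15.5 stand NSC E13.5 with 68 cells, NSC E17.5 with 76, BP E14.5 with 45 and BP E16.5 with 89. The NSC series also held E10.5, E11.5, E18.5 and the postnatal stages P0 and P1. The BP series also held E12.5, E18.5 and P0, and the NBN series held E16.5, E18.5, P1 and P3. The fits below use all 17 libraries, so their age lines run into postnatal animals. The reporter fragments that drive GFP are not given in the sources used here.

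In the embryonic cortex, radial glia line the ventricle and act as neural stem cells. They divide to renew themselves and to make basal progenitors, which express the transcription factor Eomes (Tbr2), divide once or a few times and give rise to excitatory neurons. Notch signalling keeps radial glia undifferentiated through its target genes Hes1 and Hes5, which repress proneural genes, and deep-layer neurons are made before upper-layer neurons.

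The values are TPM, in which reads are scaled by transcript length and to a fixed total per cell. That scaling removes the depth, which is therefore unknown here. A cell of NSC E15.5 had 3556 to 9048 genes at or above 1 TPM, with a median of 5196.5. No cell had fewer than 1000 such genes, against 2 cells in NSC E13.5, 10 in BP E16.5 and none in BP E14.5 and NSC E17.5. The labels name no animals or captures, so cells are not replicates and NSC E15.5 has n = 1 as a library. Doublets were not removed and no doublet caller was run.

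NSC E15.5 stood apart from every other NSC library in its sex-linked transcripts. A Y-linked gene (Eif2s3y, Uty or Kdm5d) was at 1 TPM or more in 1 of 86 cells, and Xist, the RNA of the inactive X chromosome, in 84 of 86. In NSC E13.5 a Y-linked gene was detected in 54 of 68 cells and Xist in 14. In NSC E17.5 the counts were 58 of 76 and 18, in BP E14.5 37 of 45 and 7, and in BP E16.5 38 of 89 and 46. BP E18.5 also had few cells with a Y-linked gene, 3 of 62. The label of female sex goes against the Y-linked transcripts in the 4 libraries set beside NSC E15.5. No NSC library of matching sex-linked transcripts was there to repeat a comparison, so sex, stage and capture cannot be told apart in any difference below between NSC E15.5 and other NSC libraries. In comparisons with BP libraries the reporter mice differ as well, and sex, stage, capture and reporter cannot be told apart there either.

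The gene behind the sorting reporter was rarely detected. Hes5 (chr4:154960923-154962371, plus strand, GRCm38) was at 1 TPM or more in 7 of 86 cells, 8.14% with an exact 95% binomial interval of 3.34% to 16.1%. Such intervals cover the counting of cells only, and with 1 library a group they test no difference between libraries. The share was 26.5% in NSC E13.5, 10.5% in NSC E17.5 (4.66% to 19.7%) and 2.22% in BP E14.5 (0.0562% to 11.8%), and 0 of 89 cells had it in BP E16.5 (up to 4.06%). The 7 cells had Hes5 at 2.3, 4.5, 7.8, 34.6, 40.5, 41.9 and 63.2 TPM. Of these cells 2 were radial glia-like, 2 basal progenitor-like and 3 neuron-like, by the clusters described below.

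The 250 bases before the start of Hes5 are shown because Notch acts on this gene through the DNA-binding protein RBPJ. Those of Eomes are shown beside them because its reporter sorted the cells compared. Both come from the RefSeq promoter table of GRCm38.p6, plus strand, 5′ to 3′, Hes5 at chr4:154960673-154960922 and Eomes at chr9:118477939-118478188. Capitals mark the letters TGGGAA, the core of the RBPJ motif, or their reverse complement TTCCCA.
Hes5: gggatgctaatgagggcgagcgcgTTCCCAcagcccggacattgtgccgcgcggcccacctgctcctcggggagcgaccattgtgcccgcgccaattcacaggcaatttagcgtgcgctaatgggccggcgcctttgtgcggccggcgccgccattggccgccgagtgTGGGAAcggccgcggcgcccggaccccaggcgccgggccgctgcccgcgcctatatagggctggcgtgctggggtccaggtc
Eomes: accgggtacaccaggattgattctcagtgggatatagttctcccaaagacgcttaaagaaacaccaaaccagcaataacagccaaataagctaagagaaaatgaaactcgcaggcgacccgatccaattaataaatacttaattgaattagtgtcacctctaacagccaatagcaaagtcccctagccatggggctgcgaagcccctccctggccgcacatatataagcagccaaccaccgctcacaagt
The Hes5 window holds 1 match on each strand, starting 226 and 82 bases before the gene start, and the Eomes window holds no such letters. Of 32851 promoter windows of this length, 7094 (21.6%) hold at least 1 match. A match is a description of the letters and not a binding site.

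By the 5 markers chosen for it, most cells of NSC E15.5 had neuronal transcripts and a minority had Sox2 or Aldoc. Neurod6, a transcription factor of postmitotic excitatory neurons, was at 1 TPM or more in 82 of 86 cells (95.3%) with a mean of 2059 TPM. Tubb3, neuronal beta-tubulin, was also detected in 82 cells, with a mean of 3134 TPM. Eomes was detected in 43 cells (50%), Sox2, a stem cell transcription factor, in 19 (22.1%) and Aldoc, a glycolytic enzyme rich in radial glia and astrocytes, in 11 (12.8%). At 10 TPM, 77 cells had both Neurod6 and Tubb3, and 40 of the 86 had these and none of the other 3 markers. A further 23 had both with Eomes alone of the other 3. Every cell had at least 1 of the 5 markers at 10 TPM. Detection of Neurod6 and Tubb3 does not part neurons from progenitors. Of the 7 radial glia-like cells described below, 6 had Neurod6 and 5 had Tubb3 at 10 TPM. Neurod6 was also at 10 TPM in 46 of 68 cells of NSC E13.5 and 45 of 45 of BP E14.5. Detection of these markers alone thus does not settle whether the label "neural stem cell" describes most cells of NSC E15.5.

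Cells were called neuron-profile when their mean log2(TPM + 1) over 14 newborn neuron genes was above that over 16 radial glia genes. This is a range on a score and not a cell type. In NSC E15.5 79 of 86 cells were neuron-profile (91.9%, interval 83.9% to 96.7%), and 2 cells lay within 1 log2 unit of equality. The share was 58.8% in NSC E13.5 (46.2% to 70.6%) and 80.3% in NSC E17.5 (69.5% to 88.5%). It was 45 of 45 in BP E14.5. In BP E16.5 it was 81 of 89 (91.0%), and 79 of 79 among cells with at least 1000 genes, so near-empty cells set that share. All 86 cells of NSC E15.5 had at least 1000 genes, and its share was thus the lower of the 2 among such cells. Over all 17 libraries the NSC shares ran from 2.27% at E10.5 to the 91.9% of E15.5. With 1 library a group, no test of these shares was made.

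**Figure D1:**
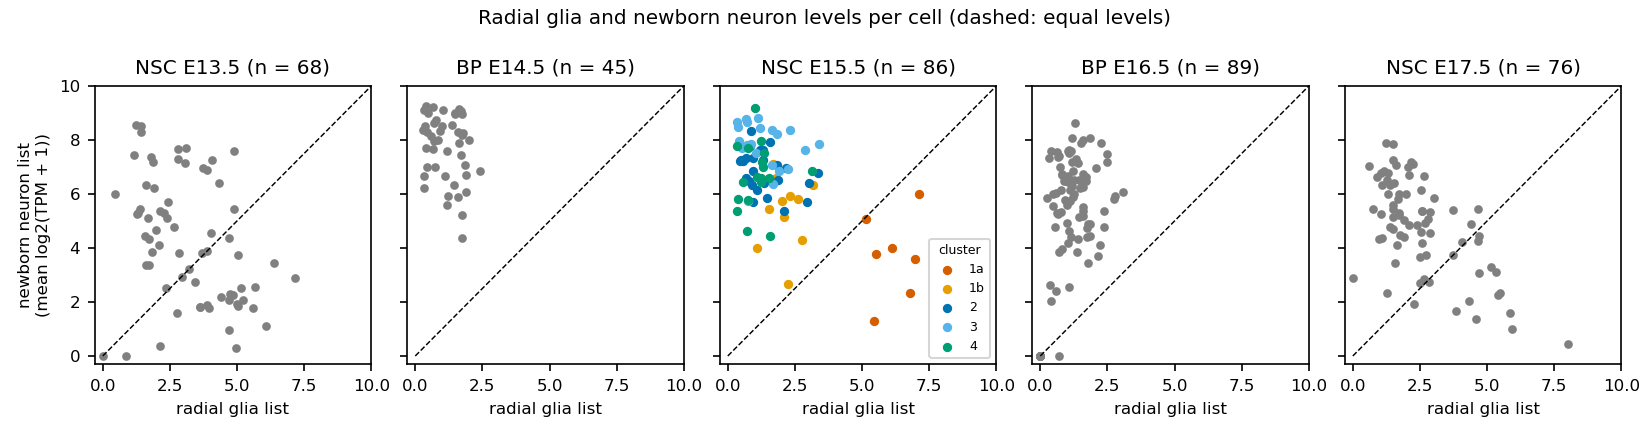
Each point is a cell, with the mean log2(TPM + 1) over 16 radial glia genes across and over 14 newborn neuron genes upward, in the 5 libraries; colours in the NSC E15.5 panel give the clusters. In NSC E15.5 79 of 86 cells sit above the line of equal levels and the 7 below it are cluster 1a, while the NSC E13.5 cells spread along both sides.

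Cell groups were separated within NSC E15.5 by Ward clustering of the 86 cells on 10 principal components of 1000 variable genes, into 4 clusters, and cluster 1 parted further in a division into 5. The genes that lead a cluster describe it and were not tested. Cluster 1a had 7 cells, led by Aldoc, Dbi, Ddah1, Vim, Fabp7 and Slc1a3, and was called radial glia-like. Cluster 1b had 11 cells, led by Eomes, Mfng, Mdk and Rnd2, and was called basal progenitor-like, though all 11 were neuron-profile. Cluster 2 (28 cells), cluster 3 (22 cells) and cluster 4 (18 cells) were neuron-profile throughout as well and kept their numbers. With 2000 variable genes the 4 groups held 7, 15, 40 and 24 cells and matched the first division with an adjusted Rand index of 0.399, so the borders moved with the genes used. The 7 cells of cluster 1a were again a group of their own, the 11 of cluster 1b were joined by 4 of cluster 2, and cluster 2 was spread over 3 groups.

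**Figure D2:**
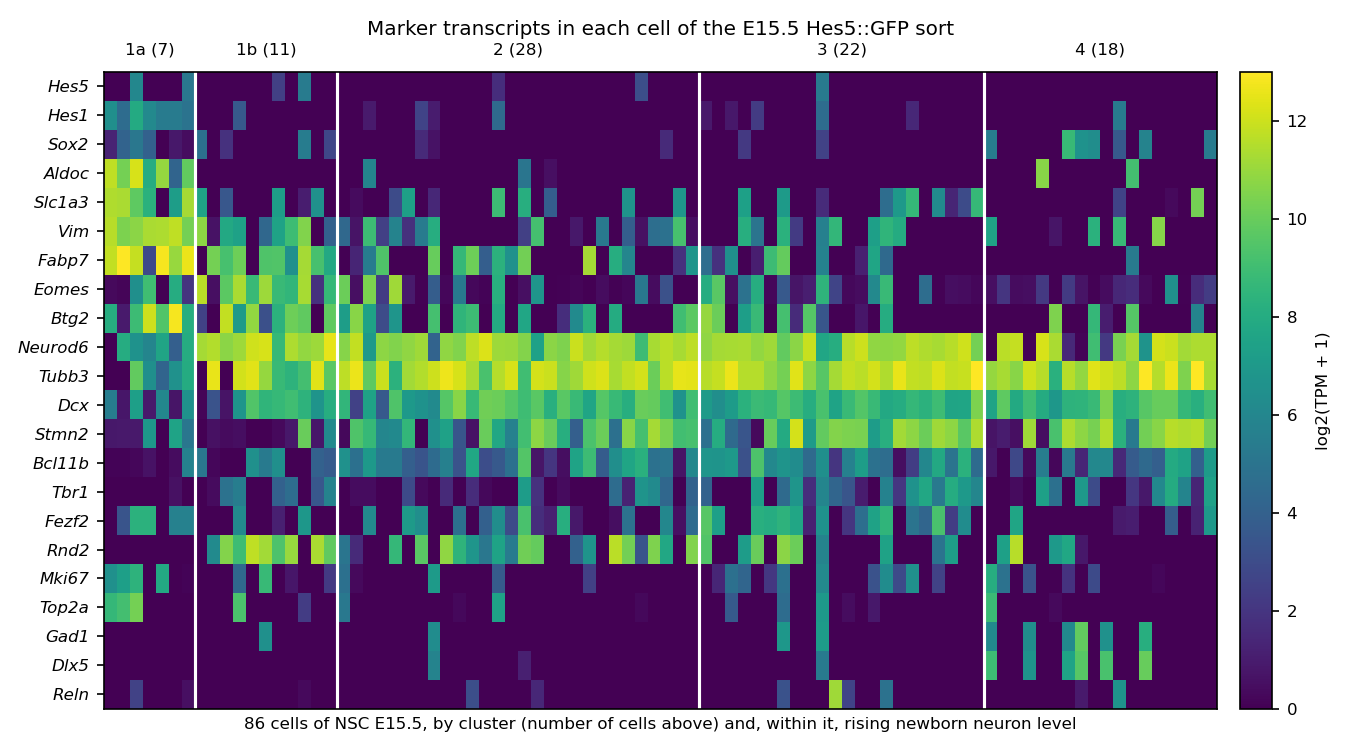
Each column is a cell of NSC E15.5 and each row a gene, with colour giving log2(TPM + 1); white lines part clusters 1a (7 cells), 1b (11), 2 (28), 3 (22) and 4 (18). Neurod6 and Tubb3 fill most of clusters 2 to 4, Aldoc and Hes1 gather in 1a, Eomes in 1b, and Gad1 with Dlx5 in a part of cluster 4.

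The 7 radial glia-like cells were the same 7 that were not neuron-profile. Aldoc was at 17.2, 262, 955, 1234, 1969, 3470.0 and 4819.9 TPM in them, and Hes1 at 23.4 TPM or more. Vim, an intermediate filament of radial glia, was at 1245 to 3499 TPM. Fabp7, a fatty acid binding protein of radial glia, was above 2000 TPM in all but 1 cell, which had 6.3 TPM. All 7 thus shared Aldoc, Hes1 and Vim at 10 TPM or more. Of the radial glia list, Sox9 (209 to 1163 TPM), Ddah1 (150 to 1149 TPM) and Pax6 (27.5 to 2634 TPM) were shared by all 7 as well. Pax6 was also at 10 TPM or more in most cells of the library, as given below, so it does not mark these 7. Other members were at 10 TPM or more in fewer cells, with Slc1a3, Notch2 and Ednrb in 6 of the 7 and Notch1 and Mfge8 in 5. Tead2 was so in 4, Sox1 in 3 and Nes in 2. Sox2 was at 10 TPM or more in 3 of the 7, at 15.3, 16.6 and 34.9 TPM, and Hes5 in 2. The 7 cells varied in Eomes and in cell cycle genes. Cells numbered 6 and 37 in the labels had Eomes at 518 and 262 TPM and Btg2, an antiproliferative gene of neurogenic progenitors, at 4082 and 7215 TPM, with Top2a, the mitotic topoisomerase, at 0. Cells 43, 63 and 76 had Top2a at 1234, 406 and 551 TPM with Eomes at 87.0, 0.25 and 0.13 TPM. Cells 9 and 30 had Top2a at 0 and Eomes at 0.026 and 2.84 TPM, and cell 9 had Mki67 at 229 TPM. Of 20 G2/M genes, 16 were at 10 TPM or more in cell 9, 10 in cell 43, 20 in cell 76 and 5 in cell 63, so Top2a alone did not mark the cycling cells. Neurod6 was at 0 to 263 TPM in the 7 cells, against medians of 2145 to 2368 TPM in clusters 2 to 4.

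The basal progenitor-like cells carried neuronal transcripts along with Eomes. Eomes was at 10 TPM or more in 9 of the 11, from 382 to 3183 TPM, and at 2.6 and 0.4 TPM in the other 2. Mfng was so in 10 of the 11 cells, and Insm1, Btg2, Gadd45g, Mfap4, Sstr2 and Hes6 in 7 each. Other members of the basal progenitor list were rare, with Nhlh1 in 2 cells, Neurog2 and Dll1 in 1 each and Neurog1 in 0. The mean log2(TPM + 1) was 4.05 over this list and 5.37 over the newborn neuron list. Neurod6 was at 414 to 5803 TPM in all 11, with a median of 2394 TPM. Neurod1, a proneural factor downstream of Eomes, was at 99.4 to 1420 TPM in 9 of the 11 and at 0 in 2. Stmn2, a microtubule regulator of growing axons, was under 1 TPM in 9 of the 11, against a median of 404 TPM in cluster 2, 970 TPM in cluster 3 and 1246 TPM in cluster 4. Eomes at 10 TPM or more was not confined to this cluster. It was found in 30 cells, of which 3 were in cluster 1a, 8 in cluster 2, 9 in cluster 3 and 1 in cluster 4. All 30 of these cells had Neurod6 at 10 TPM or more as well. The counts of Eomes cells that also had Neurod6 were 29 of 32 in NSC E13.5, 16 of 16 in BP E14.5, 42 of 48 in BP E16.5 and 22 of 33 in NSC E17.5.

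Clusters 2 and 3 were called neuron-like. Neurod6 was at 10 TPM or more in all 28 and all 22 of their cells, and Eomes in 8 and 9. Tubb3 had a median of 3492 TPM in cluster 2 and 3416 TPM in cluster 3. Ina, a neurofilament of axons, had a median of 5.9 TPM in cluster 2 and 252 TPM in cluster 3, and Gap43, a growth cone protein, 146 and 371 TPM. Fezf2 and Tbr1, which specify deep-layer neurons, were at 10 TPM or more in 11 and 6 of 28 cells in cluster 2 and in 14 and 13 of 22 in cluster 3. The clusters also differed in genes per cell, with medians of 5285.5 and 5757.5, and the part of this in the differences was not tested. Cluster 4 was led by Ncam1, an adhesion molecule, Nrxn3, a synaptic adhesion protein, Gabra2, a GABA receptor subunit, and Gad1. In it Neurod6 was at 10 TPM or more in 13 of 18 cells and Stmn2 in 14, and Gap43 had a median of 5.2 TPM.

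Transcripts of the inhibitory lineage marked a small group. Gad1, the enzyme that makes GABA, was at 10 TPM or more in 10 of 86 cells (11.6%, 5.72% to 20.3%). Their values were 70.5, 70.7, 79.0, 81.0, 89.8, 93.4, 116, 141, 284 and 939 TPM. Of the 10 cells 6 lay in cluster 4 and the others in clusters 1b, 2 and 3. Of the 10 cells 5 had Neurod6 under 10 TPM, at 0 to 3.4 TPM, and the other 5 had it at 16.6 to 4719 TPM. Dlx5, a homeobox gene of interneurons, was at 102 to 1014 TPM in the 6 cells of cluster 4. Over the whole list of 12 interneuron genes, 10 cells had at least 3 members at 10 TPM, and the summed level ran from 0.893 to 2502 TPM with a median of 8.62. The same count was 5 of 68 in NSC E13.5, 16 of 76 in NSC E17.5, 0 of 45 in BP E14.5 and 2 of 89 in BP E16.5. Gad1 at 10 TPM was found in 1 cell of NSC E13.5, 11 of NSC E17.5 and none of the BP libraries at E14.5 and E16.5.

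Sox2 was found in progenitor-like cells and in cluster 4. It was at 10 TPM or more in 12 cells, of which 7 were in cluster 4, 3 in cluster 1a and 2 in cluster 1b. Of the 7 in cluster 4, 4 had Gad1, 1 had Hes1 and none had Fabp7 at 10 TPM. Vim was at 182, 317 and 432 TPM in 3 of these 7 and at 1407 TPM or more in the 5 Sox2 cells of cluster 1. Pax6, a transcription factor of radial glia, was at 10 TPM or more in all 12, and in 73 of the 86 cells. The highest value, 440 TPM, was in cell 69, which had Gad1 at 70.5 TPM and no Hes1, and it made up 47.4% of the Sox2 sum of the library. Sox2 (chr3:34650405-34652461, GRCm38) lies inside the gene of the noncoding RNA Sox2ot on the same strand, so its reads and those of its neighbour may be hard to part.

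Of other cell types, 1 cell (22) had the profile of a Cajal-Retzius cell, an early-born neuron of the cortical surface, with Reln at 2270 TPM, Trp73 at 195, Calb2 at 148 and Lhx1 at 98.7 TPM. The summed level of the 6 Cajal-Retzius genes ran from 0.0036 to 2827 TPM with a median of 2.16. No cell had 3 or more members at 10 TPM of the lists for oligodendrocyte lineage, microglia, endothelial, mural, meningeal, choroid plexus or erythroid cells. The highest summed levels of these lists were 58.1, 126, 414, 46.1, 35.5, 10.5 and 7.55 TPM.

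Against the other NSC libraries, NSC E15.5 was higher in neuronal genes and lower in DNA replication genes, with no gene passing the adjusted test. A limma fit of log2(mean TPM + 1) over all 17 libraries had an age line for each population and a term of its own for NSC E15.5. That term is its gap from the line through the 7 other NSC libraries at its age, and the lone library is assumed to vary like the others around their lines. Of 14072 genes tested, 0 (0%) passed at an adjusted p of 0.05, and the smallest adjusted p was 0.124. At an unadjusted p under 0.05, 685 genes were found by limma, 430 higher (3.06%) and 255 lower (1.81%). Higher genes were thus 62.8% of the 685. With quantile normalization the counts were 367 higher and 411 lower, or 47.2% higher, and with the mean of log2 over cells 1109 and 298, or 78.8% higher. The median gap over all genes was 0.24 log2 units, and 0.0061 after quantile normalization, and list medians are read against these. Of all genes tested 61.1% lay above the NSC line, and list counts above or below it are read against that share. A fit on the 8 NSC libraries alone passed 24 genes, 15 higher and 9 lower. The values are means over cells, so fewer cells of a type and less RNA per cell cannot be told apart.

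DNA replication genes had the most members below the line at an unadjusted p under 0.05. Of 19 G1/S genes, 17 lay below the NSC line, 10 of them with an unadjusted p under 0.05 (background for lower genes 1.81%), with a list median of -2.14 log2 units. The median stayed between -2.38 and -1.42 under 8 settings of scaling, averaging and fit. Cdc45, a replication helicase component (chr16:18780447-18811987, GRCm38), had mean levels of 58.5 to 136 TPM in the 7 other NSC libraries and 0.701 TPM in NSC E15.5. Its gap was -5.75 ± 1.15 log2 units (SE) by limma and did not pass the adjusted test. How many of all genes lie outside the range of the 7 other libraries was not counted, so such ranges are a description only. Cdc6, which loads the helicase at origins (chr11:98907801-98923940), had 15.0 to 57.2 TPM in the 7 others and 0.038 TPM in NSC E15.5, with a gap of -4.83 ± 0.78 and an adjusted p of 0.124. Mcm3 and Rrm2, a helicase subunit and a ribonucleotide reductase subunit, had gaps of -4.51 ± 1.57 and -3.04 ± 0.77. Tk1, thymidine kinase, and Adk, adenosine kinase, are in no list and were chosen after their values were seen. Tk1 had 0.396 TPM against 62.6 to 187 TPM in the 7 others (gap -6.04 ± 0.98, adjusted p 0.124), and Adk 3.15 against 45.6 to 152 TPM (gap -4.40 ± 0.74, adjusted p 0.127). Cdc45, Cdc6, Tk1, Mcm3 and Rrm2 were among the 9 lower genes that passed when the NSC libraries were fitted alone, with Eif2s3y, a Y-linked gene, at the same adjusted p as Cdc45 (0.0085).

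**Figure D3:**
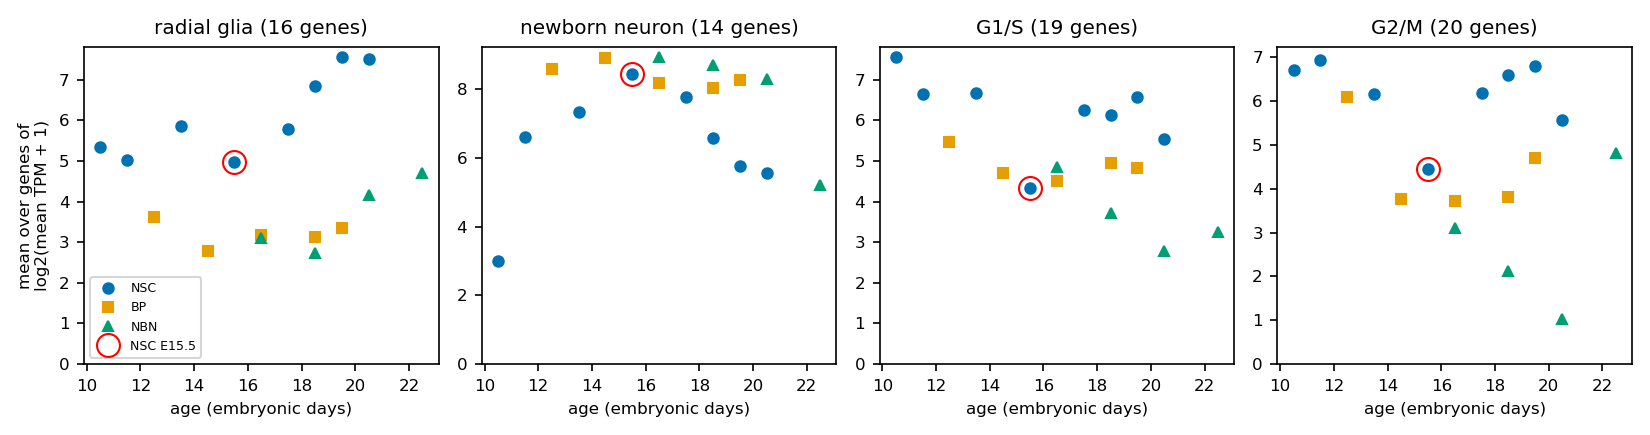
Mean over the genes of a list of log2(mean TPM + 1), against age in embryonic days (postnatal cells at E18.5 plus the age in the labels, which is 1 day for P0, 2 for P1 and 4 for P3), for 8 NSC, 5 BP and 4 NBN libraries; the ring marks NSC E15.5. NSC E15.5 is the lowest NSC library for both cell cycle lists, the highest for newborn neuron genes, and lies above all BP libraries for radial glia genes.

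Cells with many replication genes were few in NSC E15.5 beside both NSC neighbours, and few in both BP libraries as well. Cells with at least 8 of 20 G2/M genes at 10 TPM numbered 10 of 86 in NSC E15.5 (11.6%, 5.72% to 20.3%), 20 of 68 in NSC E13.5 (29.4%) and 19 of 76 in NSC E17.5 (25%). Cells with at least 8 of 19 G1/S genes numbered 5 of 86 (5.81%, 1.91% to 13.0%), 42 of 68 (61.8%, 49.2% to 73.3%) and 26 of 76 (34.2%, 23.7% to 46.0%). In BP E14.5 they were 3 of 45 (6.67%) and in BP E16.5 4 of 89 (4.49%). Among cells that were not neuron-profile, G1/S cells were 1 of 7 in NSC E15.5, 24 of 28 in NSC E13.5 and 10 of 15 in NSC E17.5. Among neuron-profile cells they were 4 of 79, 18 of 40 and 16 of 61, and 3 of 45 in BP E14.5 and 4 of 81 in BP E16.5. Cdc6 was at 10 TPM or more in none of the 10 G2/M cells of NSC E15.5, Cdc45 in none and Tk1 in 1. Their low library means fixed these counts low, as among all 86 cells they were at 10 TPM in 0, 1 and 1. Other G1/S genes ran from 1 of the 10 cells (Mcm3, Mcm5, Ung and Chaf1b) to all 10 (Tyms). Slbp was at 10 TPM in 9, Mcm7 in 8 and Hells in 7. Mki67, a proliferation marker, was so in all 10, but it belongs to the G2/M list that picked these cells. In NSC E17.5 Cdc6, Cdc45 and Tk1 were at 10 TPM in 4, 10 and 8 of 19 G2/M cells, and in NSC E13.5 in 5, 6 and 8 of 20. The threshold of 8 genes was chosen after the data were seen, and these counts were not tested.

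**Figure D4:**
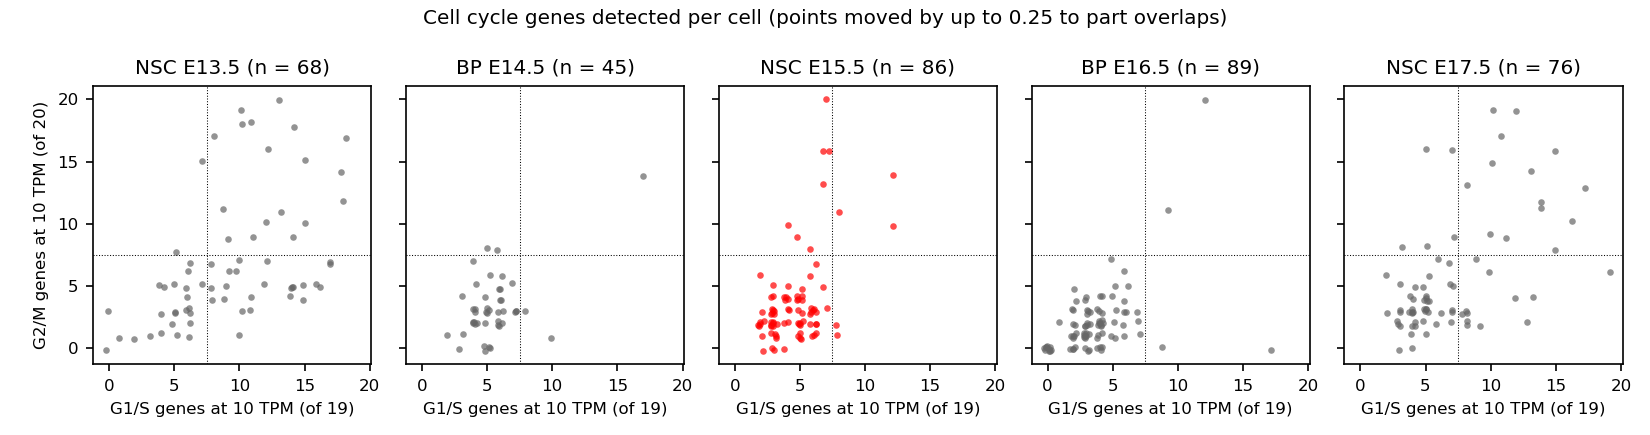
Each point is a cell, with the number of 19 G1/S genes at 10 TPM or more across and of 20 G2/M genes upward, in 5 libraries; dotted lines mark the threshold of 8 genes, and points were moved by up to 0.25. In NSC E15.5 10 cells lie above the horizontal line and 5 right of the vertical one, whereas NSC E13.5 has 42 right of it.

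The 10 G2/M cells came from all clusters, 3 from 1a, 1 from 1b, 2 from cluster 2, 3 from cluster 3 and 1 from cluster 4. Neurod6 was at 10 TPM or more in 9 of them. All 4 cells of the library with over 7000 genes were among the 10, and 2 of these 4 also had Gad1. Without these 4 cells, 6 of 82 cells were G2/M cells, and the part of cell pairs in the 4 was not tested. The whole G2/M list lay below the NSC line, 20 of 20 genes, 4 of them with an unadjusted p under 0.05, with a median of -1.87, and 19 of 20 or more lay below it in each of 8 settings. Mki67 had a gap of -1.57 ± 1.19 and Top2a of -2.50 ± 1.48.

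Neuronal lists lay above the NSC line, as did 61.1% of all genes tested. Of 14 newborn neuron genes 14 were higher, 3 with an unadjusted p under 0.05 (background for higher genes 3.06%), with a median of 2.30 log2 units. Of 13 synapse genes 13 were higher and 5 had such a p, with a median of 2.74, and of 15 migration genes 14 were higher and 5 had such a p, with a median of 2.43. All 3 medians stayed above 1.3 log2 units in 8 settings. Neurod6 had 0.44, 11.7, 832, 527, 79.0, 59.5 and 60.6 TPM in the other NSC libraries from E10.5 to P1 and 2059 TPM in NSC E15.5, a gap of 5.29 ± 2.15. Gap43 had a gap of 2.84 ± 1.53 and Tubb3 of 1.44 ± 1.31, and the highest Tubb3 level was that of NSC E11.5. Sla, an adaptor of receptor signalling that is in no list and was chosen after its values were seen, had 156 TPM against 0 to 1.33 TPM, in 22 of 86 cells, with 29.7% of its sum in 1 cell.

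Radial glia genes were all below the NSC line and above the BP line. Over all genes tested, 61.1% lay above the NSC line and 56.8% above the BP line. Against the NSC line 16 of 16 were lower, 1 with an unadjusted p under 0.05, with a median of -1.21. Sox2 had a gap of -1.76 ± 0.84, Hes5 of -1.92 ± 1.00 and Hes1 of -1.36 ± 1.34, which is about its standard error. The 11 tested basal progenitor genes were all higher than the line with a median of 0.69 (10 or 11 higher over 8 settings), none with an unadjusted p under 0.05, and Eomes had a gap of 1.20 ± 1.65. Notch pathway genes were split, 7 above and 8 below of 15 tested, with a median of -0.09.

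Against the BP line, neuronal genes lay near the line and radial glia and interneuron genes above it, with no gene passing the adjusted test. In the same limma fit 0 of 14072 genes (0%) passed, with the smallest adjusted p at 1. At an unadjusted p under 0.05 there were 228, 179 higher (1.27%) and 49 lower (0.348%), and 149 and 98 after quantile normalization, which moved the share of higher genes from 78.5% to 60.3%. Over all genes tested, 56.8% lay above the BP line. Newborn neuron genes had 8 above and 6 below the line and a median of 0.06, beside 0.096 over all genes. Radial glia genes were higher in 16 of 16, 5 with an unadjusted p under 0.05, with a median of 1.85 that ran from 0.53 to 2.18 over 8 settings. Of 16 astroglial genes 10 were higher and 4 had such a p, with a median of 0.90.

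Aldoc gave the widest gap among these members. Its mean was 174 TPM in NSC E15.5, carried by 11 cells, against 5.73, 0, 0.025, 0 and 0 TPM in the BP libraries from E12.5 to P0, a gap of 6.64 ± 1.69 by limma. Of the 11 cells 7 were radial glia-like. The others were cells 20 and 55 of cluster 4, at 1623 and 559 TPM, and cells 4 and 78 of cluster 2, at 57.7 and 32.0 TPM. Cell 20 had Hes1, Slc1a3, Fabp7 and Vim at 0 and Neurod6 at 4701 TPM. Slc1a3, a glutamate transporter of radial glia, had 156 TPM against 0.634 to 67.3 TPM (gap 3.51 ± 1.12), and Mt3, a metallothionein of glia, 40.2 against 0 to 16.3 TPM (gap 3.32 ± 0.94). Hes1 had a gap of 2.71 ± 1.39 and Sox2 of 1.02 ± 0.86. Gad1 had 22.8 TPM against 0 to 0.555 TPM (gap 4.39 ± 1.02), and 47.8% of its sum was in 1 cell. Interneuron genes were higher in 11 of 12, with 1 at an unadjusted p under 0.05. Cdc45 and Adk were lower than the BP line too, by gaps of -4.77 ± 1.19 and -3.46 ± 0.77. All of these had an adjusted p of 1.

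With 1 library on each side, genes at least 4-fold apart from both neighbours were also counted, by a rule chosen after the data were seen. Against NSC E13.5 and NSC E17.5, 178 of 14072 genes (1.26%) were higher and 193 (1.37%) lower. The lower set held 8 of 19 G1/S genes (Mcm2, Mcm3, Mcm4, Rrm2, Cdc6, Uhrf1, Cdc45 and Chaf1b) and 4 of 20 G2/M genes, and it also held Chaf1a, Pold1 and the Y-linked Eif2s3y, Kdm5d and Ddx3y. Pold1, the catalytic subunit of a replicative polymerase, had 0.74 TPM against 30.6 and 39.2 TPM. The higher set included Mef2c and Syt1 of the lists, with Xist, Ndrg1 and Abcc8, and Abcc8, a potassium channel subunit, was at 72.6 TPM against 3.88 and 3.11 TPM and in 34 cells. Against BP E14.5 and BP E16.5, 194 genes (1.38%) were higher and 50 (0.355%) lower. The higher set included Sox1, Ednrb and Mfge8 of the radial glia list, Aldoc, Mt1 and Id3 of the astroglial list, and Gad1.

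By its profile over 14072 genes, NSC E15.5 was closest to BP E14.5, with a Pearson correlation of 0.885 and a Spearman correlation of 0.877 of log2(mean TPM + 1). BP P0 and BP E12.5 followed at 0.876 each by Pearson, then BP E16.5 at 0.870 and NBN E16.5 at 0.861. NSC E17.5 reached 0.854 and NSC E13.5 0.844. These describe library means, which share the gene lengths and array type, and genes are not independent replicates.

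Among neuron-profile cells, NSC E15.5 had a higher share with Pou3f2 and a lower share with Tbr1 than BP E14.5. Pou3f2, a factor of upper-layer neurons, was at 10 TPM or more in 68.4% of the neuron-profile cells of NSC E15.5 (56.9% to 78.4%), against 20% of those of BP E14.5 and 51.9% of BP E16.5. Tbr1 was in 40.5% (29.6% to 52.1%) against 82.2% of BP E14.5 (67.9% to 92.0%) and 38.3% of BP E16.5. Bcl11b, a factor of subcerebral neurons, was in 70.9% (59.6% to 80.6%), against 88.9% (75.9% to 96.3%) and 30.9% (21.1% to 42.1%). With 1 library a group, these shares were not tested. Pou3f2 and Bcl11b are members of longer lists, which were split over library means against the BP line. Of 11 upper-layer genes 6 lay above it and 5 below, with a median of 0.25 beside 0.096 over all genes. Of 10 deep-layer genes 4 lay above it and 6 below, with a median of -0.07.

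**Figure D5:**
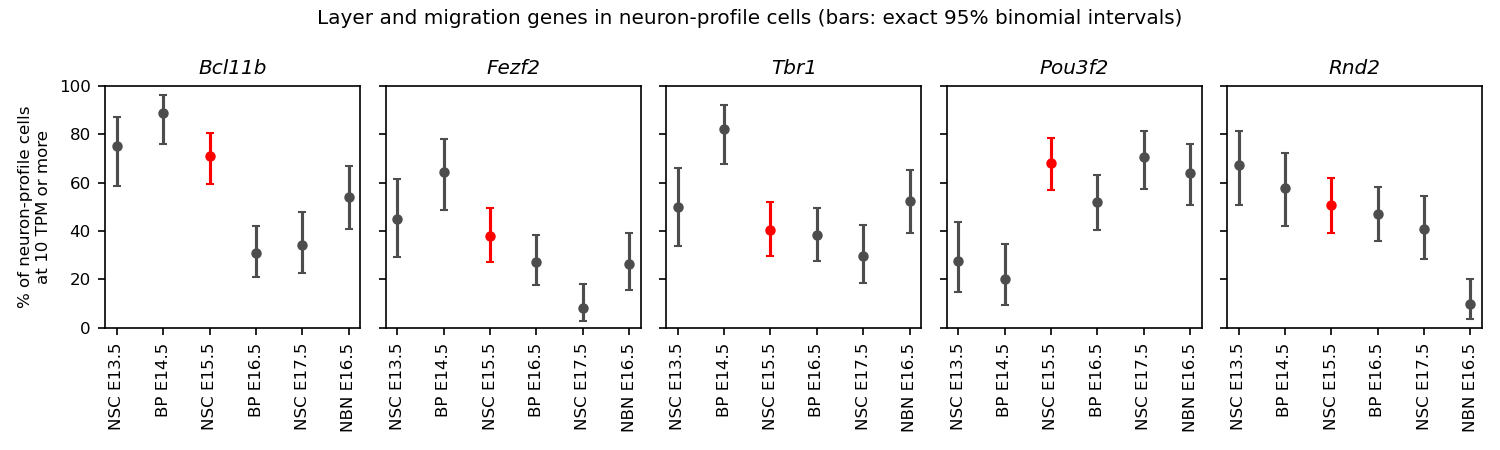
Share of neuron-profile cells at 10 TPM or more for 5 genes in 6 libraries, with exact 95% binomial intervals; NSC E15.5 is red. For Tbr1 NSC E15.5 (40.5%) lies below BP E14.5 (82.2%), and for Pou3f2 (68.4%) above it (20%).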

How the data were processed

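The deposited TPM per gene and cell came from the authors' run of kallisto 0.43.0. The submitters' processing notes also list GRCm38.p2 and mm10. Whole numbers alone stood in 7 columns of near-empty cells, none in NSC E15.5; these deposited values were treated as a score and read like TPM. Of 23078 gene IDs 22361 matched GENCODE M21. Library values are log2 of the mean TPM over cells plus 1. Genes at 1 TPM in at least 4 of 17 libraries were fitted with limma 3.58.1 (R 4.3.3, trend, two-sided, Benjamini-Hochberg, threshold 0.05). Differences on this scale understate low genes, and p-values measure the spread between libraries, which may be technical. On simulated data for the NSC line with 14072 genes, limma found 0% of changes of 1 log2 unit, 2.99% at 2 units and 42.4% at 4 units. Clustering used SciPy 1.17.1, and the adjusted Rand index scikit-learn 1.9.0. The genes to name were the 10 largest rises and falls among genes called, of which there were none, and list members; other names are marked where used. Members and lists were chosen with earlier results of these data known. Alternatives changed the pseudocount, filter, averaging, cells, scaling, age slope, clustering and libraries, and leaving out cells of over 7000 genes was added after seeing the data. Results for some genes are not reported here.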

Additional observations from a re-analysis of the deposited data

Results flagged for a closer look

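Among 48 measures examined over the 8 NSC libraries, NSC E15.5 lay far below the other 7 in 8, each with a gap to the next library that was large for the range by Dixon's 95% criterion. Chance gives an outlier in about 1 in 20 such groups, whichever library it is, whereas only outliers at NSC E15.5 were counted here. Most of these genes were picked for their low values, so the count is no independent support. On the log2(mean TPM + 1) scale the values of NSC E15.5 were 0.054 for Cdc6, 0.48 for Tk1, 2.05 for Adk, 0.77 for Cdc45, 2.24 for Mcm3, 6.63 for Rrm2, 5.45 for Top2a and 0.017 for Eif2s3y. The first 7 are genes of nucleotide supply, replication or mitosis, and Eif2s3y is Y-linked. Sex cannot be told apart from stage and capture here.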

How the results depend on the processing

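The count of 0 genes against the NSC line became 2 with a pseudocount of 10 (Fn3k and Fbxo47), 161 with no filter on low values (153 of them outside the tested set, 91 under 1 TPM in every library), 1 with the mean of log2 over cells (Abcc8) and 24 with the NSC libraries alone. Leaving out 1 library gave 0 to 1, Eif2s3y without BP E18.5 and Tk1 without NBN P3. Against the BP line the count became 147 with no filter (144 outside the tested set) and was 0 in each other setting run, 0 to 0 when 1 library was left out. The cluster of highest Fabp7 held 18 cells, and 7 with 5 clusters and with 2000 genes. The neuron-profile share was 91.9% to 93.0%. Of 600 gene values under alternatives, which belong to 25 gene results, 589 kept their direction and side of the threshold, 11 passed it newly and 0 reversed. No gene passed in the main fit, so the side of the threshold could change only by passing newly. Some of these genes were chosen after their values were seen, so the counts do not describe genes in general. No paired analysis was possible because the labelled numbers count cells within a library, and the library is the unit. Depth is unknown, so a gene at 0 in a cell cannot be told from one not captured.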
